A study of Mus musculus with 15 samples.

Results

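The leukocyte integrin genes described here are Itgam, Itgax, Itgal, Itgb2, Itga4 and Itgb1, taken by name from the endogenous probes of a NanoString nCounter immunology panel, which counts mRNA molecules directly with color-coded probe pairs and no amplification. They were 6 of the 547 endogenous genes of the panel and 6 of its 9 integrin subunit genes, and all 6 were among the 359 genes that passed the filter on background counts and were tested. Itgal, Itga4 and, in sham samples, Itgax passed that filter with counts close to background in part of the samples.

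The RNA came from cells sorted from dissociated mouse brain as CD11b high and CD45 low to intermediate, a gate set for microglia. There were 15 samples, 4 from sham animals, 4 taken 2 days after controlled cortical impact (2 dpi), 4 taken at 14 dpi and 3 taken at 60 dpi. Controlled cortical impact is a focal brain contusion made by a piston on the exposed cortex. All animals were male C57BL6J mice, with no genetic change or drug treatment named, and their age is given as 3 months in the methods and 2 months elsewhere in the study. The sham animals were the shams of the 2 dpi group, so 14 and 60 dpi had no sham of their own time, and those later groups were not randomized. The whole brain was used, so cells far from the contusion were included. The number of mice given per group in the study equals the number of samples here, and the labels do not name the animal of each sample.

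Integrins are adhesion receptors made of an alpha and a beta subunit, each encoded by its own gene. The beta2 family is restricted to leukocytes: the beta subunit CD18 (Itgb2) pairs with CD11a (Itgal) to form LFA-1, with CD11b (Itgam) to form Mac-1, also called complement receptor 3, and with CD11c (Itgax) to form complement receptor 4. Mac-1 is abundant on microglia, where it takes part in phagocytosis of complement-coated material, LFA-1 holds lymphocytes to ICAM-1, and CD11c marks dendritic cells and subsets of activated microglia. CD49d (Itga4) and CD29 (Itgb1) form VLA-4, the receptor with which monocytes and lymphocytes bind VCAM-1 on brain vessels.

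Total endogenous counts were between 66905 and 280528 per sample. The 12 sham, 2 dpi and 14 dpi samples were measured in run 1 and the 3 samples of 60 dpi in run 2, so run and 60 dpi cannot be told apart. The background limit, the mean of the negative control probes plus 2 SD, was 25.0 to 34.0 counts per sample in run 1 and 57.1 to 67.7 in run 2, where negative probe NEG_B alone gave 50 to 72 counts, against 7 to 12 in run 1. All 8 measured microglia markers were above background in every group. Of the 8, all were lower at 2 dpi than in sham (3 with TMM factors, which are computed from all genes), 1 was higher at 14 dpi (none with TMM factors), and 2 were lower at 60 dpi. Of all tested genes 28.1% were lower at 2 dpi, 21.4% were higher at 14 dpi and 11.1% were lower at 60 dpi. Values below are normalized counts, that is, counts divided by a factor from the positive controls and the housekeeping genes of the sample. Because each probe pair has its own efficiency and no per-length scale exists for it, the level of a gene was compared only with the same gene in other samples.

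Itgax was the integrin gene that changed most after injury. It rose at 14 dpi to 6.77-fold the sham level and was at 3.06-fold the sham level at 60 dpi, with 2 of 4 sham samples above background. Across the processing alternatives its log2 fold change was 2.58 to 3.51 at 14 dpi and 1.38 to 2.23 at 60 dpi. Itgb2 did not pass the test at 2 or 14 dpi and fell at 60 dpi to 0.426 of the sham level. Itga4 and Itgal were higher at 60 dpi, with fitted values 2.53-fold and 2.01-fold those of sham, where 1 of 4 samples was above background for each gene. Set against the mean background limit of the sham samples, which were in run 1, the mean 60 dpi level was 1.785 times as high for Itga4 and 1.38 times for Itgal. The limits of the single sham samples were 51.3, 53.0, 17.7 and 19.2 normalized counts, so that mean is near none of them. The 60 dpi samples had limits of their own of 66.1, 46.7 and 60.2 normalized counts. Beside these the 60 dpi means were 63.0 for Itga4, with 3 of 3 samples above background, and 48.7 for Itgal, with 1 of 3 above. Itgam and Itgb1 passed no test between any of the groups in the main scaling, and passed in some contrasts under other scalings, given with each gene. None of the 6 genes passed at 2 dpi, where 35.4% of all tested genes did, 7.24% higher and 28.1% lower. At 14 dpi 1 of the 6 was higher and none lower, against 25.6% of tested genes called, 21.4% higher and 4.18% lower. At 60 dpi 3 were higher and 1 was lower, against 36.2% of all genes called, 25.1% higher and 11.1% lower. The median log2 fold change of the 6 genes was 0.04, 0.19 and 0.50 at 2, 14 and 60 dpi over sham, where the median of all 359 tested genes was -0.30, 0.08 and 0.12. Fewer cells of a type and less RNA per cell cannot be told apart in these sorted bulk samples.

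**Figure D1:**
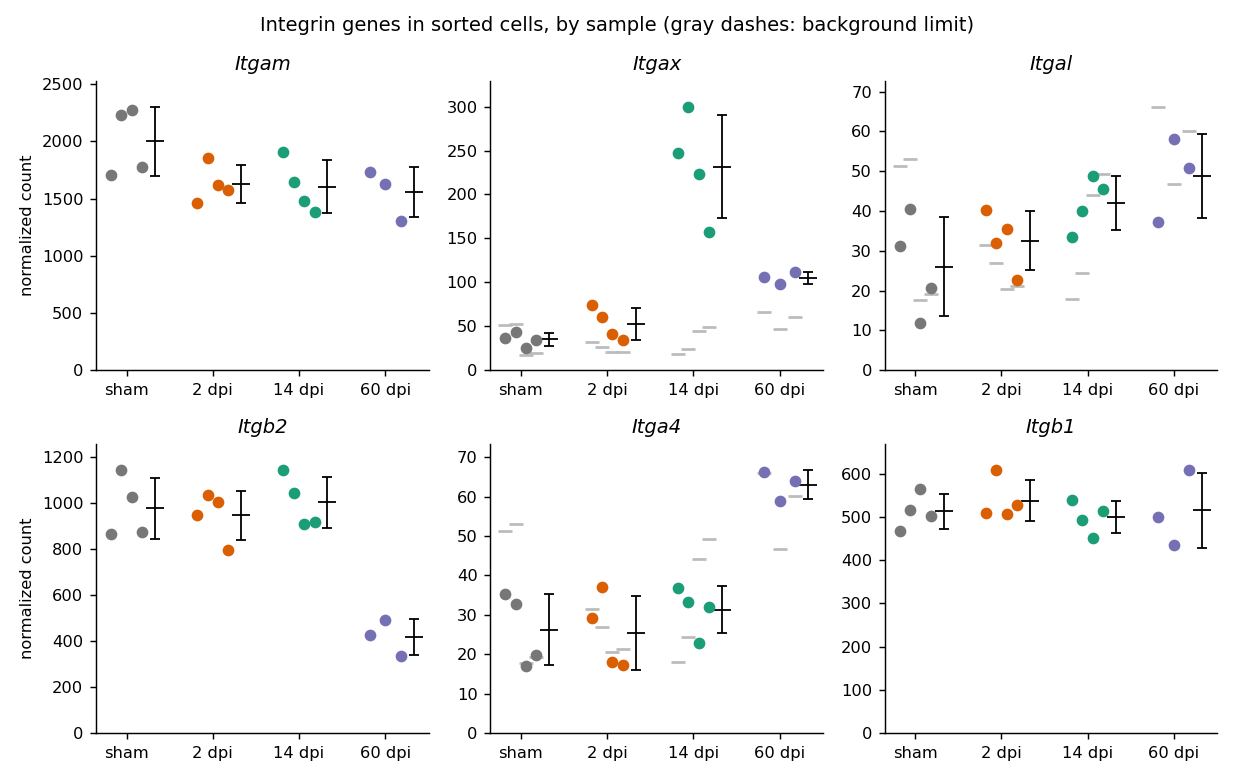
Normalized counts of the 6 integrin genes on linear axes, with 1 point per sample in sham, 2, 14 and 60 dpi. Black bars give the mean ± SD (n = 4, 4, 4 and 3), and gray dashes give each sample's background limit where it is near the values. Itgax was highest at 14 dpi, where the lowest sample was at 157.1, and Itgb2 at 60 dpi lay between 333.7 and 490.1, below every other sample. The 60 dpi and sham samples did not overlap for 35.4% of tested genes.

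Itgam encodes CD11b, the protein the cells were sorted for, so a comparison between groups concerns only cells with high CD11b protein on the surface, and the effect of the gate on the mRNA level was not tested. In sham samples Itgam had 1709, 2234, 2278 and 1775 normalized counts. The 2 dpi samples had 1464, 1855, 1617 and 1572, those of 14 dpi 1908, 1646, 1478 and 1382, and those of 60 dpi 1734, 1630 and 1308. Every injured group overlapped sham, and the highest values were those of sham replicates 2 and 3. Itgam differed from sham by -0.30 ± 0.16 at 2 dpi (log2 fold change ± SE, edgeR quasi-likelihood test, Benjamini-Hochberg adjusted p = 0.134), by -0.32 ± 0.16 at 14 dpi (adjusted p = 0.144) and by -0.36 ± 0.17 at 60 dpi (adjusted p = 0.103). The difference at 2 dpi equals that of the median tested gene, -0.30, and Itgam stood 176th of 359 from the highest change. With DESeq2's own size factors, computed from the tested genes, the difference at 2 dpi was -0.01 and those at 14 and 60 dpi passed the test, at -0.48 and -0.52. With TMM factors Itgam was lower at 60 dpi than in sham by a log2 fold change of -0.59, and with limma on the deposited normalized values it was lower at 2 dpi, at -0.45. Between injured groups Itgam was lower at 60 than at 2 dpi with TMM factors (-0.61) and with DESeq2's own size factors (-0.51). It was also lower at 14 than at 2 dpi with DESeq2's own size factors (-0.47).

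Itgax encodes CD11c, the partner of CD18 in complement receptor 4, and its gene lies on mouse chromosome 7 next to Itgam, with no annotated protein-coding gene between them. In sham samples it had 37.2, 43.7, 25.7 and 34.6 normalized counts, from raw counts of 19 to 48, and 2 of the 4 were above background. At 2 dpi it had 74.4, 60.3, 41.0 and 34.4, with all 4 above background. At 14 dpi it had 247.6, 299.2, 223.1 and 157.1, and at 60 dpi 105.6, 98.2 and 112.1. The 2 dpi samples overlapped sham, the 14 dpi samples were above all others, and the 60 dpi samples lay between the groups, below every 14 dpi sample and above every 2 dpi and sham sample. Groups that do not overlap were seen for 20.9% of tested genes between 14 dpi and sham, 35.4% between 60 dpi and sham, 37.6% between 14 and 2 dpi, 44.3% between 60 and 14 dpi and 61.8% between 60 and 2 dpi.

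The log2 fold change of Itgax over sham was 0.59 ± 0.26 at 2 dpi (SE, edgeR, adjusted p = 0.0853), 2.76 ± 0.26 at 14 dpi (95% interval 2.22 to 3.30, adjusted p = 7.744e-07) and 1.61 ± 0.27 at 60 dpi (1.05 to 2.18, adjusted p = 0.000154). At 14 dpi this was the 3rd highest change of the 359 tested genes, and at 60 dpi the 30th. The 14 dpi and 60 dpi differences passed under every alternative processing tried and without any single sample. At 2 dpi the call depended on processing: it passed with TMM factors (0.88), with DESeq2's own size factors (0.86), after subtraction of the negative control mean (1.09), with limma on the deposited normalized values (0.99) and without 2 dpi replicate 4 (0.75). Between injured groups Itgax was 4.50-fold higher at 14 than at 2 dpi (log2 2.17 ± 0.24, adjusted p = 4.809e-06), in a contrast where 42.3% of genes were called, 39.6% higher and 2.79% lower. It was lower at 60 than at 14 dpi (-1.14 ± 0.26, adjusted p = 0.00151), where 44.0% of genes were called, 21.7% higher and 22.3% lower, and higher at 60 than at 2 dpi (1.03 ± 0.26, adjusted p = 0.00322), where 56.3% were called and 46.2% were higher. The order of the levels was thus sham and 2 dpi, which did not differ beyond their spread in this test, then 60 dpi, then 14 dpi. The step between 60 and 2 dpi did not pass with TMM factors (0.50, adjusted p = 0.0969), positive-control factors alone (0.66, adjusted p = 0.405) or DESeq2's own size factors (0.60, adjusted p = 0.0538).

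Itgax is a member of the gene set known from disease-associated microglia. Of the 8 other genes of that set that were measured and tested, 6 rose at 14 dpi and none fell, with a median log2 fold change of 0.97 against 0.08 for all genes, of which 21.4% rose. At 60 dpi 3 rose and 1 fell, with a median of 0.16 against 0.12 for all genes, of which 25.1% rose and 11.1% fell. At 2 dpi none rose and 2 fell, against 7.24% and 28.1% of all genes, which became 1 and none of the 8 with TMM factors. With TMM factors 4 of the 8 rose at 14 dpi, and with positive-control factors alone none passed. The level of CD11c mRNA is also a mark of dendritic cells. Their 3 measured markers gave a summed level of 98.8 to 118 normalized counts at 14 dpi against 105 to 203 in sham. Xcr1 was at background in all samples of these 2 groups, while Ccr7 was above it in some 14 dpi samples and in no sham sample. Of the 3 only Batf3 was tested, and it did not pass at 14 dpi (-0.54, edgeR, adjusted p = 0.0953). The summed level of the 7 monocyte markers was 642 to 1086 at 14 dpi against 552 to 759 in sham.

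The stretches of chromosome 7 that precede the neighboring genes Itgax and Itgam are shown because the genes lie side by side and Itgax passed the test at 14 and 60 dpi while Itgam did not. They are the 250 bases before each annotated start, 5′ to 3′, from RefSeq on GRCm38.p6, the build of that sequence table and not one named by the count files: chr7:128129300-128129549 for Itgax and chr7:128062390-128062639 for Itgam, both on the plus strand. Capitals mark GAGGAA or its reverse complement TTCCTC, the core bound by the myeloid factor PU.1, and TGAGTCA or its reverse complement TGACTCA, the site bound by AP-1.
Itgax: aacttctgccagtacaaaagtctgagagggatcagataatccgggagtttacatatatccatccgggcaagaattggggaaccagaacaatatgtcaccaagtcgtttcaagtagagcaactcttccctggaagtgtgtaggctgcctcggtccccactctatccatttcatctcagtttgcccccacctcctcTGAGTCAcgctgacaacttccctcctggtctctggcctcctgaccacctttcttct
Itgam: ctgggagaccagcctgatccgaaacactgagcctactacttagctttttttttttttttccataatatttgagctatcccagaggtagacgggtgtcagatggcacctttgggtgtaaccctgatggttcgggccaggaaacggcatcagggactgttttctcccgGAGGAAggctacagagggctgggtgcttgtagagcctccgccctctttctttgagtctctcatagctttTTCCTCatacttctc
The Itgam stretch holds the PU.1 core 2 times and no such AP-1 site, and the Itgax stretch holds the AP-1 site 1 time, 56 bases before the start, and no PU.1 core of these letters. Of 32851 upstream stretches of the same length, 23.3% hold the PU.1 core on either strand and 4.46% the AP-1 site. The motifs do not overlap, and a match describes letters only. Upstream sequences were at hand for 4 of the 6 genes.

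Itgal encodes CD11a, the alpha subunit of LFA-1. In sham samples it had 31.3, 40.5, 11.8 and 20.6 normalized counts, from raw counts of 16 to 28. It had 40.3, 32.1, 35.4 and 22.7 at 2 dpi, 33.4, 40.0, 48.9 and 45.6 at 14 dpi, and 37.3, 58.1 and 50.7 at 60 dpi. Sham replicate 3 was the lowest of all 15 samples, every injured group overlapped sham, and counts were above background in 1 of 4 sham, 4 of 4 2 dpi, 3 of 4 14 dpi and 1 of 3 60 dpi samples. Sham replicate 3 also had the most total counts, 280528, and a scaling factor of 1.87. Sham replicates 1 and 2 had factors of 0.511 and 0.641, and their Itgal values lay below their own normalized limits of 51.3 and 53.0. The part of depth in these sham values was not tested. The log2 fold change over sham was 0.41 ± 0.34 at 2 dpi (SE, edgeR, adjusted p = 0.340), 0.77 ± 0.34 at 14 dpi (adjusted p = 0.106) and 1.0 ± 0.35 at 60 dpi (adjusted p = 0.0330). The 60 dpi difference missed the threshold with positive-control factors alone (0.96), with the negative control mean subtracted (1.502), with only the compared groups in the fit (0.99) and with limma (1.45), each about as large as or larger than the main value with a wider SE of 0.39 to 0.61. It also did not pass without sham replicate 3 (0.71, adjusted p = 0.103), sham replicate 4 (0.92, adjusted p = 0.0801), 60 dpi replicate 2 (0.86, adjusted p = 0.123) or 60 dpi replicate 3 (0.97, adjusted p = 0.0808). At 14 dpi it passed without sham replicate 2 (1.08, adjusted p = 0.0266).

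Itgb2 encodes CD18, the beta subunit shared by CD11a, CD11b and CD11c. Its 60 dpi level was the lowest of the 4 groups. In sham samples it had 865.5, 1144, 1027 and 875.6 normalized counts, at 2 dpi 950.5, 1035, 1006 and 798.7, at 14 dpi 1145, 1045, 911.8 and 918.9, and at 60 dpi 425.6, 490.1 and 333.7. All 3 samples of 60 dpi were below all 12 others. Groups did not overlap for 35.4% of tested genes between 60 dpi and sham, 44.3% between 60 and 14 dpi and 61.8% between 60 and 2 dpi. Itgb2 differed from sham by -0.05 ± 0.16 at 2 dpi (log2 fold change ± SE, edgeR, 95% interval -0.37 to 0.28, adjusted p = 0.823) and by 0.04 ± 0.16 at 14 dpi (-0.29 to 0.37, adjusted p = 0.905). At 60 dpi it fell by 1.23 ± 0.18 on the log2 scale against sham (adjusted p = 3.234e-05), the 12th lowest change of 359 genes. It was likewise lower at 60 than at 14 dpi (-1.27 ± 0.18, adjusted p = 1.9e-05) and at 60 than at 2 dpi (-1.19 ± 0.17, adjusted p = 4.386e-05). These differences passed under all 12 alternatives and without any single sample, with log2 fold changes against sham of -1.50 to -0.84.

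In the same scaling the 14 housekeeping genes differed between 60 dpi and sham by -1.29 (Polr1b) to 0.56 (G6pdx) on the log2 scale, with Eef1g, a translation elongation factor, at -1.25 ± 0.15. Within run 1 the housekeeping genes ranged from -0.56 to 0.49 at 2 dpi and from -0.92 to 0.69 at 14 dpi over sham. The part of the run in the level of Itgb2 was not tested.

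**Figure D2:**
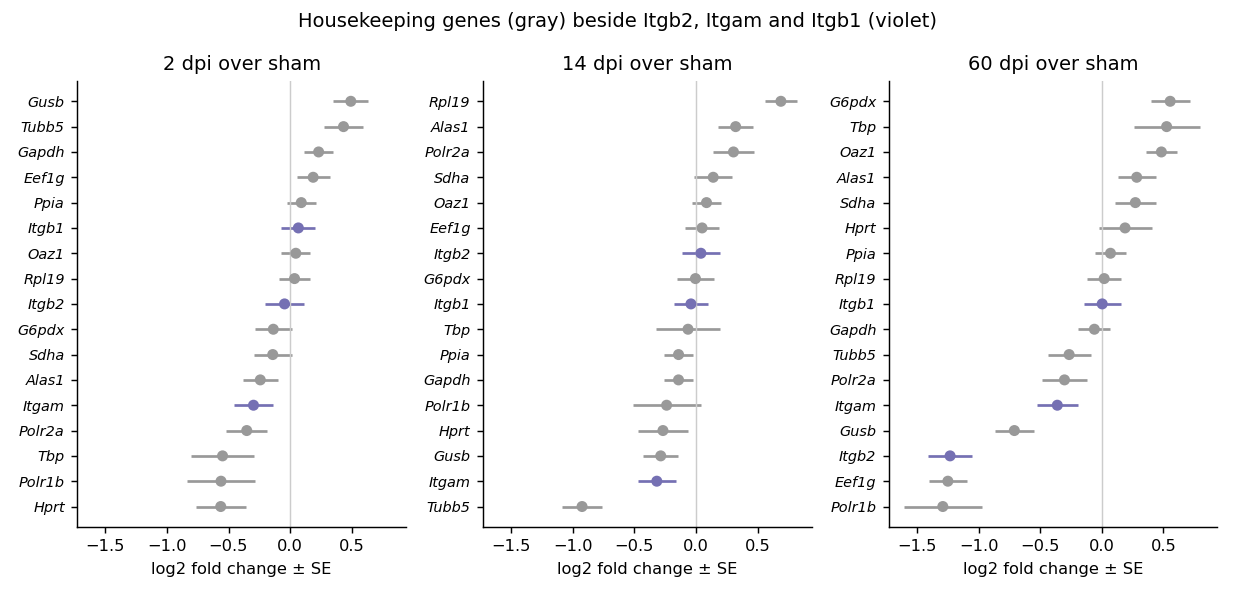
Log2 fold change ± SE over sham (n = 4) at 2, 14 and 60 dpi (n = 4, 4 and 3) for 14 housekeeping genes in gray and Itgb2, Itgam and Itgb1 in violet, sorted by value in each panel. At 60 dpi Itgb2, at -1.23, lies beside Eef1g at -1.25 and Polr1b at -1.29, and Itgb1 lies at 0.00.

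Itga4 encodes CD49d, the alpha subunit of VLA-4. In sham samples it had 35.2, 32.7, 17.1 and 19.9 normalized counts, at 2 dpi 29.3, 36.9, 18.0 and 17.2, at 14 dpi 36.9, 33.1, 22.8 and 32.1, and at 60 dpi 66.1, 58.9 and 64.1. All 3 samples of 60 dpi were above all others. Such separation of 60 dpi was seen for 35.4% of tested genes against sham, 44.3% against 14 dpi and 61.8% against 2 dpi. The raw Itga4 counts of 62, 72 and 72 at 60 dpi stood against background limits of 61.9, 57.1 and 67.7. In run 1 it was above background in 1 of 4 sham, 1 of 4 2 dpi and 2 of 4 14 dpi samples. The higher sham values, 35.2 and 32.7, came from replicates 1 and 2, whose scaling factors were 0.511 and 0.641. Both values lay below the normalized limits of their samples, 51.3 and 53.0. Itga4 differed from sham by 0.00 ± 0.31 at 2 dpi (log2 fold change ± SE, edgeR, adjusted p = 0.995) and by 0.35 ± 0.32 at 14 dpi (adjusted p = 0.465). It was higher at 60 dpi than in sham by 1.34 ± 0.32 (adjusted p = 0.00333), than at 14 dpi by 0.99 ± 0.32 (adjusted p = 0.0158) and than at 2 dpi by 1.33 ± 0.32 (adjusted p = 0.00204). With limma on the deposited normalized values the difference from sham was larger, 2.06 ± 0.86, and did not pass (adjusted p = 0.0681). The negative control probes, which averaged 23.9 to 27.5 counts in run 2 and 11.8 to 15.5 in run 1, moved in the same direction, and their part in the result was not tested.

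Itgb1 encodes CD29, the beta subunit of VLA-4 and of many other integrins. It had 468.0, 516.1, 565.7 and 503.3 normalized counts in sham samples, 510.0, 608.6, 506.9 and 526.7 at 2 dpi, 538.3, 494.1, 451.0 and 513.5 at 14 dpi, and 500.3, 436.1 and 608.7 at 60 dpi. The groups overlapped, and the group means lay between 499 and 538. Its log2 fold change over sham was 0.07 ± 0.14 at 2 dpi (SE, edgeR, 95% interval -0.22 to 0.36), -0.04 ± 0.14 at 14 dpi (-0.33 to 0.25) and 0.00 ± 0.15 at 60 dpi (-0.31 to 0.32), with adjusted p of 0.723, 0.880 and 0.990. With housekeeping factors from a geometric mean, Itgb1 was higher at 60 dpi than in sham, at 0.38, and than at 14 dpi, also at 0.38. It was lower at 60 than at 2 dpi with TMM factors (-0.61) and with DESeq2's own size factors (-0.51), and lower at 14 than at 2 dpi with DESeq2's own size factors (-0.56).

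**Figure D3:**
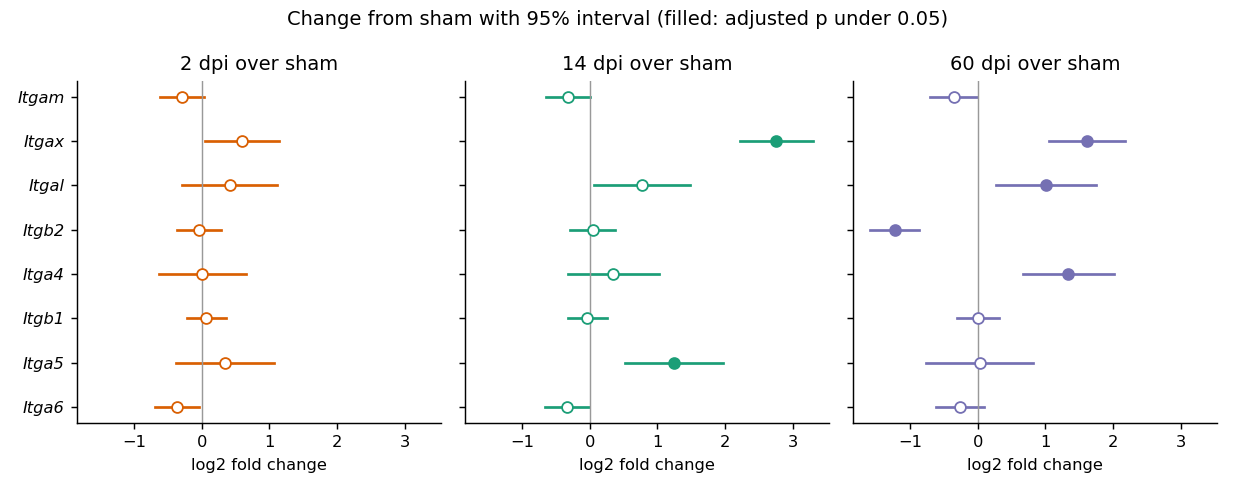
Log2 fold change over sham (x axis) with its 95% interval for 8 integrin genes at 2, 14 and 60 dpi (n = 4, 4 and 3, sham n = 4), with filled points for an adjusted p under 0.05. Itgax lies at 2.76 at 14 dpi and 1.61 at 60 dpi, and Itgb2 is the gene below 0 that passed, at -1.23 at 60 dpi.

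Markers of monocytes and endothelial cells moved at 60 dpi together with Itgal and Itga4, which monocytes and lymphocytes also express. Of all tested genes 25.1% were higher and 11.1% lower at 60 dpi than in sham, a contrast that also compares the runs. Of 7 monocyte markers, 6 were higher at 60 dpi than in sham, 3 of them with TMM factors, and their summed level was 1031 to 1606 normalized counts against 552 to 759. At 2 dpi 5 of the 7 were higher, against 7.24% of all tested genes, with a sum of 1277 to 1634, and Itgal and Itga4 did not pass there. All 3 endothelial markers were higher at 60 dpi, 2 with TMM factors, with a sum of 338 to 1047 against 168 to 269 in sham. Of the 12 T cell markers 3 were tested, and Cd3d was higher at 60 dpi (1.94 ± 0.34, adjusted p = 0.000201), while Cd3e, Cd4, Cd8a and Lck were not above background in any 60 dpi sample. Of 6 tested neutrophil markers 1 was higher at 60 dpi (none higher and 1 lower with TMM factors), S100a8, S100a9 and Camp did not pass, and the summed level of the 7 measured was 9422 to 40002 against 1163 to 9127 in sham. The part of these cells in the integrin levels was not tested.

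Ratios between integrin genes within a sample do not depend on how samples were scaled, but they do depend on background where a gene is near it. With the negative control mean subtracted, Itgax over Itgam against sham moved to 1.48 at 2 dpi, 3.93 at 14 dpi and 2.62 at 60 dpi on the log2 scale, while Itgb2 over Itgb1 at 60 dpi was -1.28. A total of 42 differences between groups in 7 ratios of raw counts were tested by exact two-sided permutation. The smallest p of this test is 0.0286 with 4 against 4 samples and 0.0571 with 3 against 4. With these limits no ratio could pass 0.05 after adjustment over the 42 tests, whatever the data. That none passed (lowest adjusted p = 0.0923) therefore says nothing about the ratios. The ratio of Itgax to Itgam counts was 13.0%, 18.2%, 15.1% and 11.4% at 14 dpi, against 2.18%, 1.95%, 1.13% and 1.95% in sham. That was 3.02 higher on the log2 scale, with groups apart and the smallest p the design allows (exact p = 0.0286). At 2 dpi the ratio was 5.08%, 3.25%, 2.53% and 2.19%, also above every sham sample (0.82 higher, exact p = 0.0286). The gap there was very small, 2.188% in the lowest 2 dpi sample against 2.176% in the highest sham sample. Itgax was above background in 2 of 4 sham samples, so this separation rests on counts near background. At 60 dpi it was 6.09%, 6.02% and 8.57%, which was 1.96 higher than in sham (exact p = 0.0571).

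The ratio of Itgb2 to Itgb1 counts was 85.1%, 112% and 54.8% at 60 dpi, against 185%, 222%, 182% and 174% in sham, 1.23 lower on the log2 scale (exact p = 0.0571, the smallest possible). The Itgb2 count was thus below all earlier samples also relative to Itgb1. Every 60 dpi ratio also compares the runs, and a difference between runs in a single probe would not cancel in it. The part of the run in these ratios was not tested. The ratio of Itgam to Itgb2 counts differed in opposite directions at the later times: it was 0.36 lower at 14 dpi than in sham (log2, exact p = 0.0286) and 0.88 higher at 60 dpi than in sham (exact p = 0.0571). The ratio of Itgax to Itgb2 was 2.66 higher at 14 dpi and 2.84 higher at 60 dpi than in sham (3.57 and 3.56 with the negative control mean subtracted), and between 60 and 14 dpi it differed by 0.18 (exact p = 0.514). The ratio of Itga4 to Itgb1 was 1.34 higher at 60 dpi than in sham (exact p = 0.0571), with Itga4 above background in 1 of the 4 sham samples, and 2.15 higher with the negative control mean subtracted, so its size is not fixed by these counts.

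**Figure D4:**
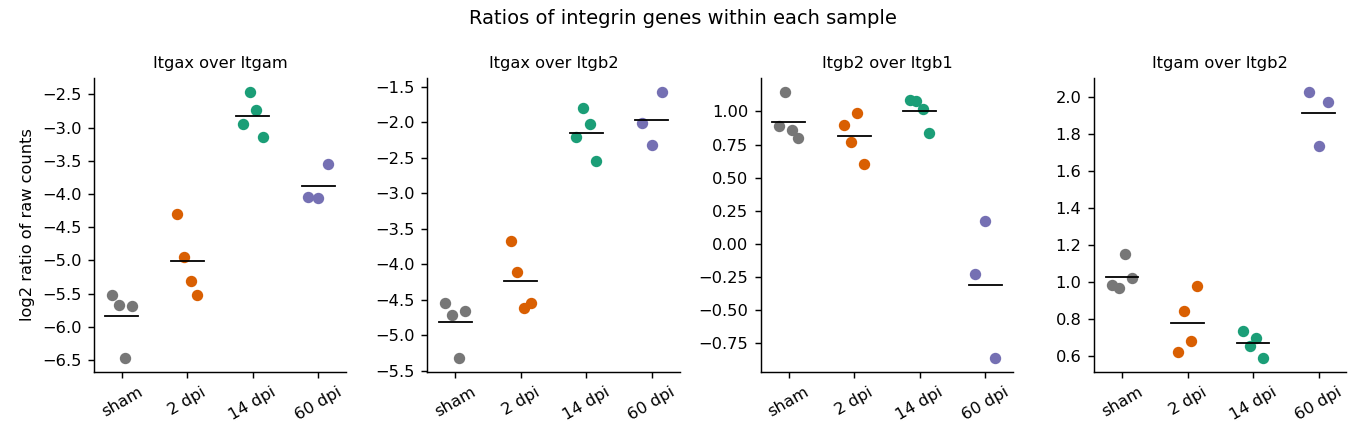
Log2 ratio of raw counts of 4 pairs of integrin genes within each sample (y axis), with 1 point per sample and a bar at the group mean, for sham, 2, 14 and 60 dpi (n = 4, 4, 4 and 3). Itgax over Itgam is highest at 14 dpi, and Itgb2 over Itgb1 is lowest at 60 dpi.

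The panel held 3 further integrin subunit genes. Itga5, the alpha subunit of the fibronectin receptor, had 68.5, 71.7, 39.0 and 26.5 normalized counts in sham and 50.8, 175.4, 128.6 and 116.6 at 14 dpi. It was higher at 14 dpi than in sham (1.25 ± 0.35, edgeR, adjusted p = 0.0115), although 14 dpi replicate 1 lay within the sham range, and at 60 dpi it was at 59.7, 39.3 and 52.5 (0.03 ± 0.38, adjusted p = 0.978). Itga5 was above background in 0 of 3 samples at 60 dpi and in 4 of 4 in sham, and in 3 of 3 at 60 dpi with the limit computed without NEG_B. The 14 dpi call of Itga5 was lost with positive-control factors alone (1.13) and without 14 dpi replicate 2 (0.97). Itga6, the alpha subunit of laminin receptors, averaged 723 ± 124 at 2 dpi, 734 ± 54.3 at 14 dpi and 772 ± 88.8 at 60 dpi, against 930 ± 144 in sham (SD, n = 4, 4, 3 and 4), and did not pass against sham in the main fit. With DESeq2's own size factors Itga6 was lower at 14 dpi (-0.52) and at 60 dpi (-0.44), with DESeq2 on the main factors at 2 dpi (-0.37), and with limma at 2 dpi (-0.52). It also passed at 2 dpi without sham replicate 1 (-0.46) or 2 dpi replicate 2 (-0.47). Itga2b, the platelet integrin subunit CD41, was not above background in any of the 15 samples and was not tested.

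Of the integrin ligands and counter-receptors, 9 were tested. At 14 dpi 4 were higher than in sham and none lower, with a median log2 fold change of 0.59 against 0.08 for all genes, of which 21.4% were higher and 4.18% lower. At 60 dpi 4 were higher and 1 lower, with a median of 0.46 against 0.12 for all genes, of which 25.1% were higher and 11.1% lower. C3, the source of the complement fragment that Mac-1 and complement receptor 4 bind, averaged 200 ± 59.1 at 14 dpi and 245 ± 58.2 at 60 dpi, against 54.3 ± 25.2 in sham (SD, n = 4, 3 and 4), and its log2 fold change was 1.95 and 2.24 (adjusted p = 0.00197 and 0.000802). Vcam1, the ligand of VLA-4, was higher at 14 dpi (1.04, adjusted p = 0.00649) and at 60 dpi (1.78, adjusted p = 7.326e-05). Icam1, the main ligand of LFA-1, was higher at 14 dpi (1.19, adjusted p = 0.00129), and at 60 dpi it differed by -0.42 (adjusted p = 0.222). Icam4 was higher at 14 dpi by 0.98, and Icam2, an endothelial ligand of LFA-1, at 60 dpi by 1.21. The matrix protein Fn1, bound by VLA-4 and by the Itga5 integrin, was higher at 2 dpi by 1.16 and at 60 dpi by 1.01. Icam5, a neuronal ligand of LFA-1, was lower at 2 dpi (-0.79) and at 60 dpi (-3.06), and the neuronal and T cell glycoprotein Thy1 was lower at 2 dpi (-1.15). At 60 dpi Icam5 averaged 15.5 normalized counts, where the background limits of the samples were 66.1, 46.7 and 60.2. At 2 dpi 1 of the 9 was higher and 2 were lower, near the 7.24% and 28.1% of all genes, which became 2 higher and none lower with TMM factors. With those factors the counts became 4 higher and 2 lower at 14 dpi and 3 higher and 3 lower at 60 dpi, and with positive-control factors alone 1 higher and none lower at 14 dpi and 2 higher and 2 lower at 60 dpi. Of all 359 tested genes, TMM factors gave 49 higher and 18 lower at 2 dpi, 66 and 30 at 14 dpi, and 67 and 74 at 60 dpi. Positive-control factors alone gave 20 higher and none lower at 14 dpi, and 48 and 18 at 60 dpi.

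Of the genes of integrin signaling and their membrane partners, 14 were tested. At 14 dpi 4 were higher than in sham, a share near the 21.4% of all genes: Plaur, the urokinase receptor that associates with Mac-1 (1.68), its ligand Plau (1.17), the tetraspanin Cd9 (0.80) and the adaptor Tyrobp (0.49). At 60 dpi Plaur (1.64) and Tyrobp (0.45) were higher, and Plau (-0.73) and the kinase Src (-0.53) were lower. At 2 dpi 5 were lower in the main scaling and none higher: Src (-0.79), the focal adhesion kinase Ptk2 (-1.02), the kinase Btk (-0.67) and the tetraspanins Cd81 (-0.38) and Cd82 (-0.57), a share near the 28.1% of all genes that were lower, and a count that turned to 2 higher and none lower with TMM factors. The median of the 14 genes was -0.33 at 2 dpi, close to the -0.30 of all genes, 0.28 at 14 dpi and -0.07 at 60 dpi. With TMM factors 3 were higher and none lower at 14 dpi, and 1 was higher and 4 were lower at 60 dpi.

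Over the 15 samples, the tested genes whose normalized log2 counts followed each integrin gene most closely were, as a description, the following. Itgam was most like Gpr183, an oxysterol-sensing receptor (Pearson's r = 0.93), the inhibitory receptor Lair1 (0.86) and Casp8 (0.83). Itgax was most like the chemokine receptor Cxcr4 (0.90), the interferon-induced Ifi204 (0.90) and the lectin Cd22 (0.88), and over the 12 samples of run 1 these values were 0.90, 0.96 and 0.90. Itgal was most like the kinase Ikbke (0.89), C3 (0.86) and Slamf7 (0.86). Itgb2 was most like complement factor B, Cfb (0.91), Cebpb (0.90) and Hif1a (0.89), and within run 1 those values were 0.24, 0.51 and 0.16. Itga4 was most like Ccl11 (0.90) and the MHC class II genes H2-Aa (0.88) and H2-Eb1 (0.88), which were 0.72, 0.65 and 0.64 within run 1. Itgb1 had no gene above 0.62, the value for Fn1, followed by Vtn (0.61) and Il1r1 (0.48). The samples share groups, runs and scaling factors, and no p was computed.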

How the data were processed

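RNA of sorted brain cells was counted on the NanoString nCounter platform in 15 samples. The deposited raw count table holds whole numbers for every probe and was read here as estimated counts, because its header lines hold other values. The authors also deposited a table of normalized signal made with NanoStringNorm, without a version. It was reproduced here from the raw counts by subtracting the mean of the negative controls and scaling to the housekeeping sum, and all 8205 values matched within 4.39e-06. The authors' tests used NanoStringDiff, which was not used here.

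Genes above the mean plus 2 SD of the 8 negative controls in at least 3 samples were tested (359 of 547). Raw counts were tested with edgeR 4.0.16 (R 4.3.3, glmQLFit robust and glmQLFTest), with offsets from 6 positive controls and 14 housekeeping genes, in a single fit of all samples with 6 contrasts, Benjamini-Hochberg adjustment over the 359 genes and a threshold of 0.05. SE is the absolute log2 fold change over the square root of F. Ratios were tested by exact permutation (scipy 1.17.1). The test was checked on simulated data. Alternatives used limma 3.58.1 (log2 of signal plus 1), DESeq2 1.42.0, other factors and other filters.

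Named genes were the 6 integrin genes, the other integrin subunits, the list members that passed against sham, and the 3 genes most like each integrin gene. The members and lists were chosen with earlier results of these data known.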

Additional observations from a re-analysis of the deposited data

Results flagged for a closer look

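The change from sham differed between time points for 3 of the 6 integrin genes, each by the edgeR contrast between the injured groups, in which 42.3% of all tested genes passed between 14 and 2 dpi, 44.0% between 60 and 14 dpi and 56.3% between 60 and 2 dpi. Itgax was 2.17 higher at 14 than at 2 dpi on the log2 scale (adjusted p = 4.809e-06), differed by -1.14 between 60 and 14 dpi (adjusted p = 0.00151), and was 1.03 higher at 60 than at 2 dpi (adjusted p = 0.00322). Itgb2 differed by -1.27 between 60 and 14 dpi (adjusted p = 1.9e-05) and by -1.19 between 60 and 2 dpi (adjusted p = 4.386e-05). Itga4 was 0.99 higher at 60 than at 14 dpi (adjusted p = 0.0158) and 1.33 higher at 60 than at 2 dpi (adjusted p = 0.00204). Every contrast with 60 dpi also compares the runs. Of 18 sets of 4 samples, none had a sample set apart from the rest, where chance alone gives about 1 in 20.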

How the results depend on the processing

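No paired analysis was made, because the labels name no pairs of samples between groups. Replicate numbers in the text follow the order of the samples within each group. No integrin difference that passed the test changed direction under any alternative. The calls of Itgax at 14 and 60 dpi and of Itgb2 at 60 dpi against sham passed under every alternative that could be computed. The number of tested genes that passed, 127 at 2 dpi, 92 at 14 dpi and 130 at 60 dpi against sham, became 67 at 2 dpi with TMM factors, 21, 20 and 66 at 2, 14 and 60 dpi with positive-control factors alone, and 140 at 14 dpi with DESeq2's own size factors. Between 14 and 2 dpi the 152 became 48 with TMM, 17 with positive-control factors alone and 72 with DESeq2's own size factors. Between 60 and 14 dpi the 158 became 80 with positive-control factors alone, and between 60 and 2 dpi the 202 became 128 with TMM and 56 with positive-control factors alone. The cause was not tested.

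The number of the 6 integrin genes that passed against sham was 0, 1 and 4 at 2, 14 and 60 dpi. At 2 dpi it became 1 with TMM, with DESeq2's own size factors and with the negative control mean subtracted, and 2 with limma. It became 2 at 14 dpi with DESeq2's own size factors and with limma, and 2 at 60 dpi with limma. At 60 dpi it also became 5 with TMM, DESeq2's own size factors and geometric-mean housekeeping factors, and 3 with positive-control factors alone, with the negative control mean subtracted, with the stricter filter and with only the compared groups. Between 14 and 2 dpi 1 became 3 with DESeq2's own size factors, and between 60 and 2 dpi 3 became 1 with positive-control factors alone. Itgax between 60 and 2 dpi lost its call with TMM (0.50), positive-control factors alone (0.66) and DESeq2's own size factors (0.60). Itga4 did not pass between 60 and 14 dpi with positive-control factors alone (0.83) or the negative control mean subtracted (1.29), or between 60 and 2 dpi with those (0.96 and 1.49) or limma (1.77), where the main values were 0.99 and 1.33.

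The share of passing genes that were higher was 20.5% at 2 dpi against sham, and 73.1% with TMM, 95.2% with positive-control factors alone and 59.4% with DESeq2's own size factors. At 14 dpi 83.7% became 68.8%, 100% and 50.7% under those settings, and at 60 dpi 69.2% became 47.5%, 72.7% and 51.3%, with 89.1% under geometric-mean housekeeping factors. Those factors moved the median gene at 60 dpi to 0.51.

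Without each sample in turn, 80 to 140, 67 to 104 and 100 to 124 genes passed at 2, 14 and 60 dpi against sham, 111 to 151 between 14 and 2 dpi, 128 to 159 between 60 and 14 dpi and 156 to 201 between 60 and 2 dpi. Of the 6 integrin genes, 0 to 1, 1 to 2 and 3 to 4 passed against sham, and 1, 3 and 3 between the injured groups in every case. Itga4 has no value under the stricter background filter, which removed it, and 60 dpi has none without its samples. The background limit without NEG_B was tried after the data were seen and moved Itgal at 60 dpi to 2 of 3 samples above background. Depth limits Itgal, Itga4 and sham Itgax, whose counts lie near background, and Itga5 at 60 dpi was not above the main background limit in any sample.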
